A study of Mus musculus with 6 samples.

Results

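The proteasome genes of C2C12 myoblasts were compared between stretched and unstretched cells. The members were the subunits of the constitutive proteasome, chosen by symbol (the Psma, Psmb, Psmc, Psmd, Psme, Psmf and Psmg families without the immunoproteasome genes Psmb8, Psmb9 and Psmb10), together with Pomp, Adrm1, Nfe2l1, Uchl5 and Psmf1. This rule found 49 genes among the 22375 rows of the table. C2C12 is an established mouse myoblast line, grown in serum-containing medium on elastic plates coated with poly-lysine. The CON group (n = 3) was not stretched, and the 4H group (n = 3) was stretched cyclically at 15% elongation for 4 h. All libraries came from this line, and their labels name no knockdown and no other agent, so the culture models the pull on muscle cells without the other cells of a diaphragm. The libraries titled 4H1, 4H3 and 4H4 are called 4H replicates 1, 2 and 3. Poly(A) RNA was sequenced, and the values are FPKM, the fragments counted per length of transcript and per sequencing depth, so levels of different genes can be set side by side. The labels call the libraries replicate biosamples and do not say whether they came from separate cultures, so the p-values measure the spread between these samples, which may be technical.

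The proteasome is the protease that degrades ubiquitin-tagged proteins. Its 20S core is a barrel of alpha and beta rings with the proteolytic sites of PSMB5, PSMB6 and PSMB7 inside. The 19S particle caps the barrel: its base unfolds substrates with ATPases, and its lid removes the ubiquitin. Dedicated chaperones build the rings, and the transcription factor NFE2L1 is known to raise the subunit genes together when the protease is short of capacity. In muscle the complex is known for its part in the loss of protein during atrophy.

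All 5 myoblast markers (Myod1, Myf5, Pax7, Des, Cdh15) were detected. Their summed level was 100.2 to 100.8 FPKM in the CON group and 127 to 133 FPKM in the 4H group. Myod1 was at 4.48 to 5.55 FPKM in the CON group and at 17.4 to 18.8 FPKM in the 4H group, whereas Myf5 was at 15.3 to 16.8 FPKM and at 8.75 to 11.0 FPKM. Markers of differentiated muscle summed to 1.71 to 2.31 FPKM in the CON group and to 2.79 to 3.13 FPKM in the 4H group. The higher sum lay in Acta1 and Mymk. Myog was at 0.136 to 0.281 FPKM in the CON group and at 0 to 0.0794 FPKM in the 4H group, and Myh3 and Ckm were not higher. Of 7 markers of other cell types, Ptprc, Adgre1, Epcam and Alb were listed at 0 in all 6 libraries, and the sum of the 7 did not pass 0.289 FPKM. The part of the myoblast marker shift in the results below was not tested. The FPKM of all genes summed to 395790 to 397260 in the CON libraries and to 385146 to 387516 in the 4H libraries.

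Proteasome transcripts were abundant and, as a set, close to level. Psma8, the alpha subunit known from the testis, and Psmb11, the beta subunit known from the thymus, were listed at 0 in all 6 libraries. The other 47 members were tested, with means from 9.27 FPKM upwards, and they took 0.924% to 0.943% of all FPKM in the CON libraries and 0.960% to 0.971% in the 4H libraries. At an adjusted p of at most 0.05 (limma with Benjamini-Hochberg adjustment over 11593 genes), 12 members were higher and 8 were lower in the 4H group, and these are the members called below. Among all genes tested, 46.7% passed this threshold, 22.6% higher and 24.1% lower, so the 42.6% of members that passed is near the background. No member also reached an absolute log2 fold change of 1, as 3.88% of all genes did. The median log2 fold change was -0.0087 over the members and -0.014 over all genes tested. The middle 50% of the members lay between -0.07 and 0.10, against -0.19 and 0.18 for all genes. A change of less than 0.1 in either direction was measured in 27 members (57.4%), compared with 28.8% of all genes tested. The members lie at higher levels (CON median 71.3 FPKM, against 12.1 FPKM for all genes tested), and genes of like level were not compared. In RNA pooled from a culture, a change in every cell and a change in part of the cells cannot be told apart.

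**Figure D1:**
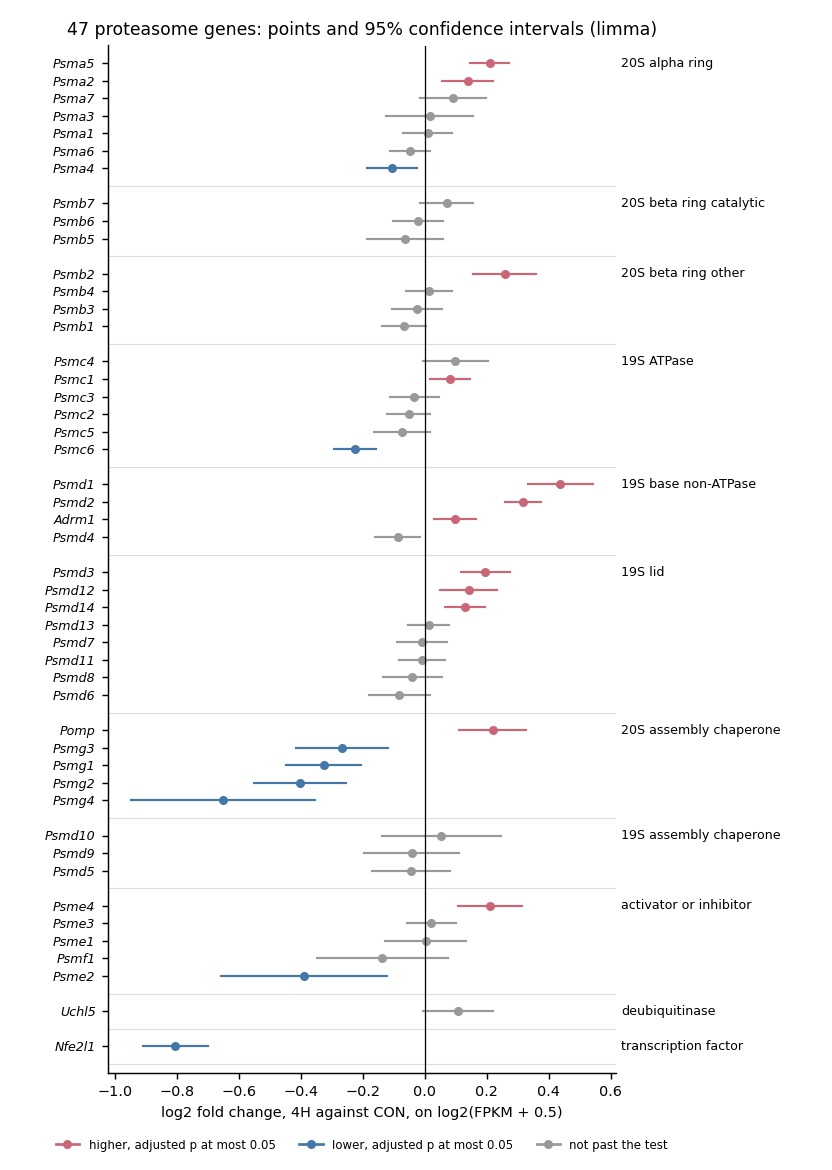
Log2 fold change of the 47 tested members, 4H against CON on log2(FPKM + 0.5), as points with 95% confidence intervals from limma (n = 3 per group), grouped by role. Most subunits of the core and the lid sit within 0.1 of 0, while Psmg1 to Psmg4 and Nfe2l1 lie to the left and Psmd1 and Psmd2 to the right.

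Nfe2l1, the gene of the factor that drives subunit transcription, had the largest fall among the 47 members tested. It was at 122, 113 and 116 FPKM in CON replicates 1 to 3 and at 68.0, 69.4 and 63.1 FPKM in the 4H replicates. No 4H library reached the level of a CON library (117 ± 4.74 and 66.8 ± 3.31 FPKM, respectively). The log2 fold change was -0.80 (SE 0.0457, 95% confidence interval -0.91 to -0.70, adjusted p = 4.0e-06). By level it ranked 11th of the 47 members in the CON group and 29th in the 4H group. Relative to the mean of the 14 core subunits in the same library, Nfe2l1 stood at 1.18 ± 0.050 in the CON group and at 0.659 ± 0.0356 in the 4H group.

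Promoter sequence was read because subunit genes are known to share transcription factors. In the RefSeq table (GRCm38.p6), windows from 250 bases before to 50 bases after the start were present for 41 members, 48 windows in all. The table held no window for Psma8, Psmb1, Psmb2, Psmb7, Psmc3, Psmd3, Psmd7 and Psmg2. A set of 4 short motifs was searched on both strands, each counted on its own where matches overlap. The antioxidant response element, which NFE2L1 binds with small MAF proteins, was searched as TGACNNNGC and was held by 8 of 48 windows (16.7%), compared with 12.4% of 32851 windows of the same length. The CCAAT letters were held by 18 windows (37.5%, against 37.4%). CCGGAAG, a core recognised by ETS factors, was held by 17 windows (35.4%, against 8.86%). The heat shock element, units of TTC and GAA in alternation, was held by 0 windows, against 0.603%. The 32851 windows were not limited to genes expressed in these cells, so a share among expressed genes is not given. By gene, CCGGAAG was found in 6 of the 10 members that rose and had a window, in 3 of the 7 that fell and in 7 of the 23 that did not pass the test. The antioxidant response element was found in 3, 1 and 4 of them, respectively.

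The 100 bases before the start are shown for the members that passed the test and whose stretch holds no annotated exon, so that the regulator, a 19S base and a lid subunit that rose and ring chaperones that fell can be read side by side. Nfe2l1 has several starts, and the outermost is shown. Each is written 5′ to 3′ on the strand of the gene, and capitals mark a match to CCAAT or CCGGAAG or to the reverse complement of either.
Nfe2l1, chr11:96829969-96830068, strand -: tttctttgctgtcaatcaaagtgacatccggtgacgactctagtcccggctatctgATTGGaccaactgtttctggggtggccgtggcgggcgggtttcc
Psmd14, chr2:61711594-61711693, strand +: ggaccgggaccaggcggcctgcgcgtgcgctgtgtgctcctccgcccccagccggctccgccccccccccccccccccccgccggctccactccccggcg
Psmd2, chr16:20651552-20651651, strand +: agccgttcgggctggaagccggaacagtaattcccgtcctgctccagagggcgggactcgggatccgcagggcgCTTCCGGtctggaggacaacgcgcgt
Psmg1, chr16:95990961-95991060, strand -: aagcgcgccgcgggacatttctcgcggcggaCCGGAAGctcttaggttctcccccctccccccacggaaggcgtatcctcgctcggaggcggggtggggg
Psmg3, chr5:139826895-139826994, strand -: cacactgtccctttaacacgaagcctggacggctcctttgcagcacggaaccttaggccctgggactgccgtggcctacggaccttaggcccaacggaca
Psmg4, chr13:34162864-34162963, strand +: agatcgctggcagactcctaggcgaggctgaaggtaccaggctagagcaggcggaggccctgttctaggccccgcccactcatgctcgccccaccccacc

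Psmd2, which rose, and Psmg1, which fell, both hold CCGGAAG in these stretches, on opposite strands. Psmd14, Psmg3 and Psmg4 hold none of the motifs there, and the stretch of Nfe2l1 holds the CCAAT letters on the reverse strand.

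The 20S core was close to level. Its 14 subunits summed to 1393 ± 26.3 FPKM in the CON group, against 1421 ± 24.2 FPKM in the 4H group, a ratio of 1.02. The sums overlapped, with 1370.5 to 1422 FPKM and 1393 to 1439 FPKM, but as a share of all FPKM in the library they did not, with 0.346% to 0.358% in the CON group and 0.362% to 0.371% in the 4H group. Of the 14, 3 were higher, 1 was lower and 10 did not pass the test (28.6% called, beside 46.7% of all genes tested), with a median log2 fold change of 0.01.

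None of the catalytic subunits passed the test on the FPKM scale. Psmb5, the chymotrypsin-like site and target of proteasome inhibitors, was at 47.5, 46.1 and 44.9 FPKM in the CON replicates and at 40.9, 46.7 and 45.02 FPKM in the 4H replicates. Its groups overlapped, and 40.0% of its 75-base stretches recur in another gene. The log2 fold change was -0.06 (95% confidence interval -0.18 to 0.06, adjusted p = 0.358). Psmb6, the caspase-like site, was at 125, 129 and 135 FPKM and at 125, 131 and 128 FPKM, with a log2 fold change of -0.02 (-0.10 to 0.06, adjusted p = 0.653). Psmb7, the trypsin-like site, was at 111, 111 and 118 FPKM and at 115, 122 and 119.9 FPKM, with a log2 fold change of 0.07 (-0.02 to 0.16, adjusted p = 0.16). Psmb7 passed after rescaling to equal totals (TPM, adjusted p = 0.0416) and after quantile normalization (0.0382), with 0.378 the highest over its alternatives. On the FPKM scale, for none of the 3 did the 95% confidence interval reach a change of 0.2 in either direction.

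Among the structural subunits of the beta ring, Psmb2 rose. It was at 65.8, 63.7 and 67.0 FPKM in the CON replicates and at 77.1, 83.3 and 75.0 FPKM in the 4H replicates. Every 4H value lay above the CON values, and the log2 fold change was 0.26 (SE 0.0443, adjusted p = 0.00182). Psmb1, Psmb3 and Psmb4 had log2 fold changes of -0.07, -0.02 and 0.01 and did not pass the test (adjusted p = 0.115, 0.611 and 0.744).

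The alpha ring forms the gate of the barrel. Psma5 was at 96.3, 98.5 and 98.8 FPKM in the CON replicates and at 115, 113 and 112 FPKM in the 4H replicates. All 4H values lay above all CON values, with a log2 fold change of 0.21 (SE 0.0273, adjusted p = 0.000415). Of its 75-base stretches, 39.8% recur in another gene. Psma2, the lowest of the core subunits by level, also rose (38.0 ± 0.736 and 41.9 ± 0.952 FPKM, respectively, adjusted p = 0.0129, log2 fold change 0.14). Psma4 was the only core subunit called lower, at 119.5, 121 and 125 FPKM in the CON replicates and at 109, 117 and 114 FPKM in the 4H replicates (log2 fold change -0.11, SE 0.0350, adjusted p = 0.0377). The groups did not overlap, but the call rests on single libraries. The adjusted p was 0.0505, 0.0754 and 0.119 without CON replicates 1, 2 and 3 and 0.109 and 0.0694 without 4H replicates 1 and 3, and it ranged from 0.0309 to 0.128 over the 18 alternatives (other pseudocounts, filters, models and scalings, and each library left out in turn). Psma1, Psma3, Psma6 and Psma7 had log2 fold changes of 0.01, 0.02, -0.05 and 0.09 and did not pass the test, although Psma7 did so after rescaling to TPM (adjusted p = 0.0482) and after quantile normalization (0.0298).

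**Figure D2:**
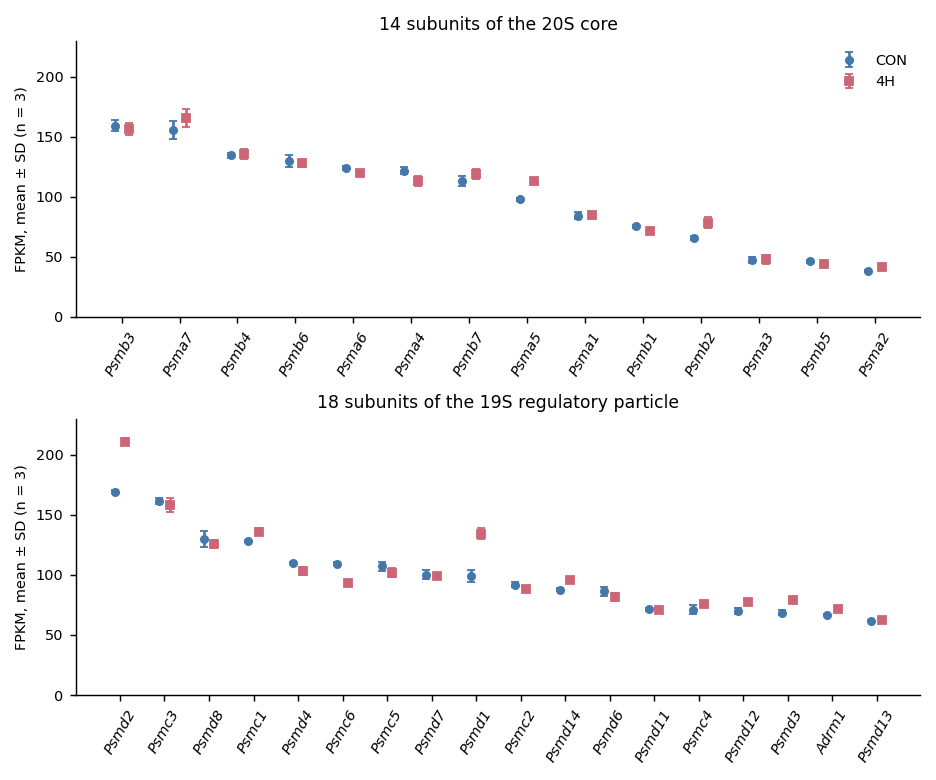
Levels of the 14 subunits of the 20S core (top) and the 18 subunits of the 19S particle (bottom) in FPKM, mean ± SD of 3 libraries, CON as circles and 4H as squares, ordered by the CON mean. The order is largely kept, and Psmd2 and Psmd1 stand out as the 19S subunits whose squares lie well above their circles.

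In the 19S particle the ATPases and the other subunits differed in their sums. The 6 ATPases Psmc1 to Psmc6, which form the unfolding ring, summed to 670.2 ± 7.38 FPKM in the CON group, against 654.8 ± 3.66 FPKM in the 4H group, a ratio of 0.977. The 12 non-ATPase subunits summed to 1121 ± 14.1 and 1213 ± 14.9 FPKM, respectively, a ratio of 1.08. Most of that difference lay in Psmd1 and Psmd2, and the other 10 summed to 852 ± 10.4 and 867 ± 7.49 FPKM, sums that overlapped at a ratio of 1.02. As a share of all FPKM in the library these 10 did not overlap, with 0.213% to 0.217% in the CON group and 0.222% to 0.227% in the 4H group. After rescaling to TPM, the ratios of the ATPases and of the 12 were 1.002 and 1.11, so the direction of the ATPase sum depends on the scale. Of the 18 subunits, 7 were higher and 1 was lower, and the 7 were 1 ATPase, 3 base subunits and 3 lid subunits. The 44.4% called is near the 46.7% of all genes tested.

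Psmc6 was the ATPase that fell. Its values were 109, 109 and 111 FPKM in the CON replicates and 92.9, 92.0 and 95.8 FPKM in the 4H replicates. The groups were well apart, with a log2 fold change of -0.23 (SE 0.0295, adjusted p = 0.000422). Psmc1 was called higher, from 129.6, 128 and 128 FPKM to 136, 133 and 139 FPKM, with a log2 fold change of 0.08 (SE 0.0281, adjusted p = 0.043). This small difference lost its call without any of CON replicates 1, 2 and 3 (adjusted p = 0.0717, 0.0884 and 0.115) or 4H replicates 1 and 3 (0.0828 and 0.129), and the adjusted p ranged from 0.0101 to 0.139 over all alternatives. Psmc2, Psmc3, Psmc4 and Psmc5 had log2 fold changes of -0.05, -0.03, 0.10 and -0.07. None of these 4 passed the test, although Psmc4 did so without CON replicate 1 (adjusted p = 0.0231) and after rescaling to TPM (0.0396, with 0.275 the highest over its alternatives).

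The base scaffolds had the largest rises among the members. Psmd1, one of the large scaffold subunits that hold the ATPase ring, was at 93.3, 100.4 and 104 FPKM in the CON replicates and at 137, 137 and 129 FPKM in the 4H replicates. The lowest 4H value lay well above the highest CON value, with a log2 fold change of 0.44 (SE 0.0452, 95% confidence interval 0.33 to 0.54, adjusted p = 0.000116). Its annotation overlaps exons of Gm21972 on the same strand and of Htr2b on the opposite strand, and 7.6% of its 75-base stretches recur in another gene. Psmd2, the other large scaffold and a docking site for ubiquitin-like proteins, was at 168, 170.1 and 169.8 FPKM and at 212, 213 and 208 FPKM. It had the highest level of all members in both groups, and its log2 fold change was 0.32 (SE 0.0250, adjusted p = 2.51e-05). Of its 75-base stretches, 14.9% recur in another gene. Relative to the mean of the 6 ATPases in the same library, a ratio that no rescaling of libraries changes, Psmd1 went from 0.888 ± 0.0570 to 1.23 ± 0.0400 and Psmd2 from 1.52 ± 0.0259 to 1.93 ± 0.0222. Neither ratio overlapped between the groups. By level Psmd1 ranked 17th of the 47 members in the CON group and 7th in the 4H group.

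The ubiquitin receptors of the base showed smaller differences. Adrm1 was at 65.9, 66.4 and 67.8 FPKM in the CON replicates and at 71.6, 72.0 and 70.5 FPKM in the 4H replicates (log2 fold change 0.10, SE 0.0293, adjusted p = 0.0271). The groups did not overlap. The call was lost without CON replicate 1 or 2 (adjusted p = 0.079 and 0.0658) and without 4H replicate 1 or 2 (0.0679 and 0.0807). After correction for GC content and length the log2 fold change was 0.0478 (adjusted p = 0.2), and the adjusted p ranged from 0.00583 to 0.200 over all alternatives. Of its 75-base stretches, 11.8% recur in Gm9774. Psmd4, the other receptor, had a log2 fold change of -0.09 and an adjusted p of 0.0508, just outside the threshold (109.9 ± 0.761 and 103 ± 3.27 FPKM, respectively). It passed in 5 of the 18 alternatives, with an adjusted p of 0.021 without 4H replicate 1 and 0.347 the highest. Uchl5, the deubiquitinase that docks on ADRM1, was at 27.9, 31.4 and 29.2 FPKM and at 31.9, 32.4 and 31.0 FPKM. Its groups overlapped and it did not pass the test (adjusted p = 0.11, log2 fold change 0.11), except without CON replicate 2 (0.0316), after rescaling to TPM (0.0465) and after correction for GC content and length (0.0283, with 0.302 the highest over its alternatives).

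In the lid, 3 of 8 subunits were higher and none was lower, with a median log2 fold change of 0.0024, and the 37.5% called is not above the 46.7% of all genes. Psmd3 was at 66.7, 69.2 and 70.2 FPKM in the CON replicates and at 76.8, 80.5 and 79.0 FPKM in the 4H replicates. The groups did not overlap (log2 fold change 0.20, SE 0.0337, adjusted p = 0.00184). Psmd14, the protease that cuts the ubiquitin chain off the substrate, rose from 87.6 ± 1.32 to 95.9 ± 0.420 FPKM (adjusted p = 0.00525, log2 fold change 0.13). Psmd12 had 70.0 ± 2.82 and 77.2 ± 2.24 FPKM, respectively (adjusted p = 0.0188, log2 fold change 0.14). Its call was lost without CON replicate 1 or 3 (adjusted p = 0.0621 and 0.0543) or 4H replicate 1 (0.0598), and the adjusted p ranged from 0.00793 to 0.0621 over all alternatives. Psmd6, Psmd7, Psmd8, Psmd11 and Psmd13 lay between -0.08 and 0.01 on the log2 scale and did not pass the test. Over the core and the 19S particle together, 20 of 32 subunits did not pass, and their 95% confidence intervals reached from -0.1844 to 0.2032. Sem1, a small lid subunit that the symbol rule does not take in, was at 21.9 ± 2.71 and 18.6 ± 0.257 FPKM (adjusted p = 0.0519, log2 fold change -0.22).

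The chaperones that build the 20S core were all called, 4 lower and 1 higher, beside 24.1% and 22.6% of all genes tested. The 4 genes Psmg1 to Psmg4, whose products assemble the alpha ring in PSMG1 with PSMG2 and PSMG3 with PSMG4 pairs, all fell. Pomp, the maturation protein that guides the beta subunits onto that ring and is then degraded, rose.

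Psmg4 had the largest fall of the 4. It was at 19.1, 16.3 and 16.8 FPKM in the CON replicates and at 9.43, 13.7 and 10.0 FPKM in the 4H replicates. The highest 4H value was still below the lowest CON value, although the 4H group had the wider spread (log2 fold change -0.65, SE 0.129, 95% confidence interval -0.95 to -0.35, adjusted p = 0.00392). Psmg2 was at 32.9, 35.6 and 33.0 FPKM and at 23.5, 25.3 and 27.8 FPKM, with a log2 fold change of -0.40 (SE 0.0644, adjusted p = 0.00125). Psmg1 was at 29.8, 27.9 and 29.1 FPKM and at 21.6, 24.2 and 23.1 FPKM, with a log2 fold change of -0.33 (SE 0.0521, adjusted p = 0.00123). Psmg3 was at 17.5, 15.8 and 16.5 FPKM and at 13.1, 13.3 and 14.8 FPKM, with a log2 fold change of -0.27 (SE 0.0640, adjusted p = 0.00964). In none of the 4 did the groups overlap. Their sum was 96.8 ± 2.22 FPKM in the CON group, against 73.3 ± 4.91 FPKM in the 4H group, a ratio of 0.757, beside the ratio of 1.02 for the core subunits they assemble. Psmg3 shares an exon with Gm26938 on its own strand, and 8.85% of its 75-base stretches recur there. None of the other 3 had a 75-base stretch in another gene.

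Pomp was at 39.8, 37.8 and 41.9 FPKM in the CON replicates and at 44.8, 46.9 and 47.7 FPKM in the 4H replicates. The groups did not overlap (log2 fold change 0.22, SE 0.0469, adjusted p = 0.00554). The chaperones of the 19S base did not pass the test. Psmd5, Psmd9 and Psmd10 had log2 fold changes of -0.04, -0.04 and 0.05 (adjusted p = 0.537, 0.645 and 0.629), with levels of 23.1, 9.63 and 17.0 FPKM in the CON group. Their 95% confidence intervals reached from -0.19 to 0.25, and their difference from the chaperones of the core was not tested.

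**Figure D3:**
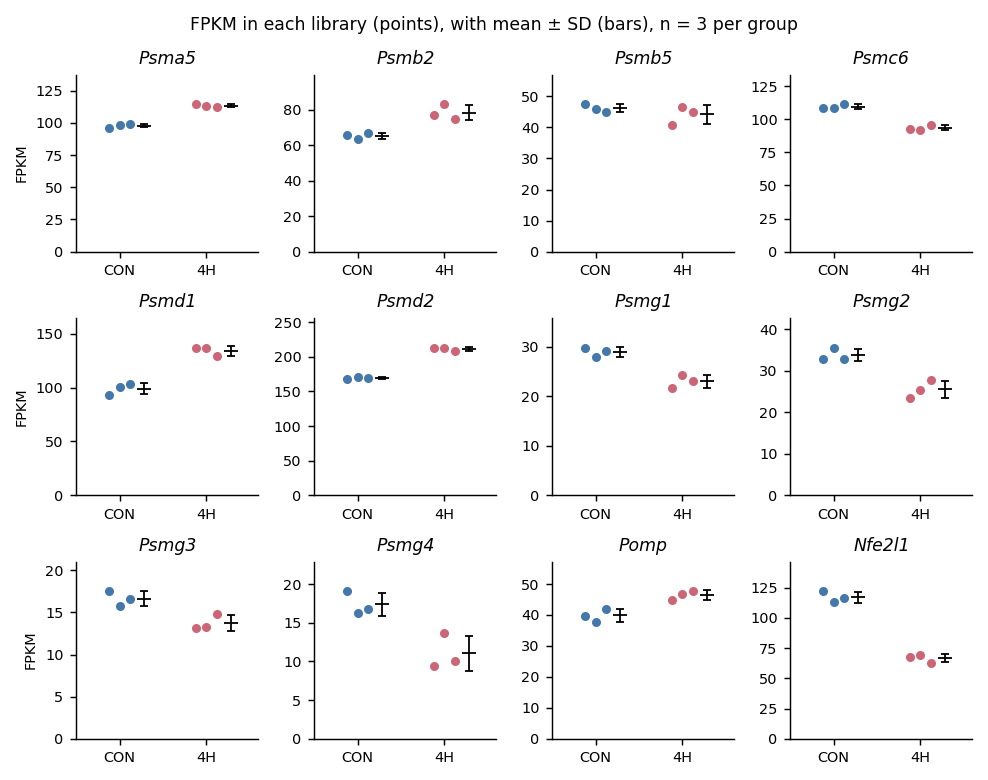
FPKM of 12 members in each library (points, CON left and 4H right) with mean ± SD as bars, n = 3 per group, each axis starting at 0. The points of the groups are apart in every panel except Psmb5, where they overlap.

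The activators, which open the gate of the core without ubiquitin, and the inhibitor gave mixed results. Psme4, the large nuclear activator PA200, was at 24.8, 24.7 and 25.2 FPKM in the CON replicates and at 29.0, 27.5 and 30.2 FPKM in the 4H replicates. The groups did not overlap (log2 fold change 0.21, SE 0.0447, adjusted p = 0.00535). Psme2, a subunit of the interferon-induced activator PA28, was at 39.1, 53.8 and 54.0 FPKM and at 35.0, 36.8 and 38.9 FPKM. CON replicate 1 lay close to the 4H values, while the other CON replicates stood well above them (log2 fold change -0.39, SE 0.116, adjusted p = 0.0256). The adjusted p was 0.0846 and 0.0869 without CON replicates 2 and 3 and 0.0699 and 0.0599 without 4H replicates 1 and 2, and it ranged from 0.000249 to 0.0869 over all alternatives. With Psme2b, a near-identical copy, it shares 51.7% of its 75-base stretches, so its level is uncertain. Psme1, the partner of PSME2 in PA28, had a log2 fold change of 0.0031 (95% confidence interval -0.13 to 0.13), and Psme3, a nuclear activator of its own, of 0.02 (-0.06 to 0.10). Psmf1, the inhibitor PI31, was at 9.20, 10.1 and 9.85 FPKM and at 10.2, 7.96 and 8.35 FPKM, and its groups overlapped. It did not pass the test (adjusted p = 0.259, log2 fold change -0.14), except without 4H replicate 1 (0.0303, with 0.586 the highest over its alternatives).

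Across the members, the groups did not overlap in 24 of 47, 12 higher and 12 lower, compared with 56.7% of all genes tested, 27.5% higher and 29.2% lower. Of the 20 members called, 15 were called in every one of the 18 alternatives, 9 of them higher (Pomp, Psma2, Psma5, Psmb2, Psmd1, Psmd2, Psmd3, Psmd14 and Psme4) and 6 lower (Nfe2l1, Psmc6 and Psmg1 to Psmg4). No called member changed sign under any rescaling. The rescalings moved the member median from -0.0087 to at most 0.0304, a shift smaller than any called change, so this was near certain beforehand.

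The surrounding pathway was described from a list of 47 other genes of ubiquitin-dependent degradation, 46 of which were in the table. Of the 45 that were tested, 11 were higher, 14 were lower and 0 reached an absolute log2 fold change of 1. That is 55.6% called, beside 46.7% of all genes tested (22.6% higher and 24.1% lower), 3.88% of which reached this fold change. The median log2 fold change of the 45 was 0.0054, and the list was drawn up with earlier results of these data known. Nfe2l3, a relative of Nfe2l1, was below the filter, at 0.0579 to 0.211 FPKM.

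Genes that act on NFE2L1 or bind DNA with it, listed together with its relative Nfe2l2, moved in both directions, 6 higher and 5 lower of 12 tested, beside 22.6% and 24.1% of all genes. The 3 small MAF partners did not move together. Maff was at 11.4, 11.2 and 11.1 FPKM in the CON replicates and at 21.4, 20.9 and 21.4 FPKM in the 4H replicates. Its groups were far apart for a log2 fold change of 0.89 (SE 0.0430, adjusted p = 1.69e-06). Mafg, the most abundant of the 3, fell from 35.1 ± 1.74 to 27.8 ± 1.47 FPKM (-0.33, adjusted p = 0.00131). Mafk was at 14.6 ± 0.219 and 16.0 ± 0.372 FPKM, a difference close to the threshold (0.12, adjusted p = 0.0493) that lost its call without any one of the 6 libraries (0.061 to 0.136). Ufd1, a cofactor of the p97 segregase that pulls NFE2L1 out of the endoplasmic reticulum, rose from 33.1, 32.9 and 34.2 FPKM to 38.8, 41.4 and 39.4 FPKM (adjusted p = 0.00109, log2 fold change 0.25). Vcp, which encodes p97 itself, rose from 174 ± 0.648 to 206 ± 5.16 FPKM (0.24, adjusted p = 0.000195). Ddi2, the protease that cuts NFE2L1 into its active form, fell from 17.6 ± 0.387 to 14.6 ± 1.0 FPKM (-0.26, adjusted p = 0.00661). Nfe2l2, the gene of the related antioxidant factor NRF2, fell along with Nfe2l1. It was at 80.2, 82.6 and 79.9 FPKM and at 53.5, 52.2 and 54.3 FPKM (log2 fold change -0.60, SE 0.0316, adjusted p = 2.75e-06).

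The inducible beta subunits of the immunoproteasome, which replace the constitutive sites in cells exposed to interferon, were below every subunit of the constitutive core in these cells. Psmb9 was at 4.11, 4.85 and 6.71 FPKM in the CON replicates and at 2.97, 2.47 and 2.89 FPKM in the 4H replicates (log2 fold change -0.78, SE 0.159, adjusted p = 0.00444). Psmb8 was at 11.1, 12.8 and 12.2 FPKM and at 8.44, 8.11 and 6.4 FPKM (log2 fold change -0.63, SE 0.104, adjusted p = 0.00152). In all of the immunoproteasome genes every 4H library was below every CON library, as in 29.2% of all genes tested, Psmb10 included, which did not pass the test (adjusted p = 0.144, log2 fold change -0.12).

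Rad23b, a shuttle receptor that carries ubiquitinated proteins to the 19S particle, rose from 81.5 ± 1.5 to 92.9 ± 2.24 FPKM (adjusted p = 0.00159, log2 fold change 0.19). The shuttle receptors did not move together. Ubqln2 and Ubqln4 were lower (log2 fold change -0.18 and -0.16, adjusted p = 0.0129 and 0.0256), and Ubqln4 lost its call in 8 of the 18 alternatives. Ubqln1 did not pass the test (0.07, adjusted p = 0.118). Midn, whose product midnolin takes nuclear proteins to the proteasome without ubiquitin, was at 21.1, 20.9 and 20.8 FPKM and at 27.2, 30.3 and 28.4 FPKM (log2 fold change 0.44, SE 0.0481, adjusted p = 0.000161). Uba6, a ubiquitin-activating enzyme, was at 12.0, 12.9 and 12.8 FPKM and at 15.6, 15.4 and 14.7 FPKM (log2 fold change 0.27, SE 0.0516, adjusted p = 0.0032). Of the 7 ubiquitin-conjugating enzymes tested, 1 was higher and none was lower. Among the 12 proteins that bind or transport the proteasome, 2 were higher and 2 lower. These are 14.3% and 33.3% called, below the 46.7% of all genes.

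**Figure D4:**
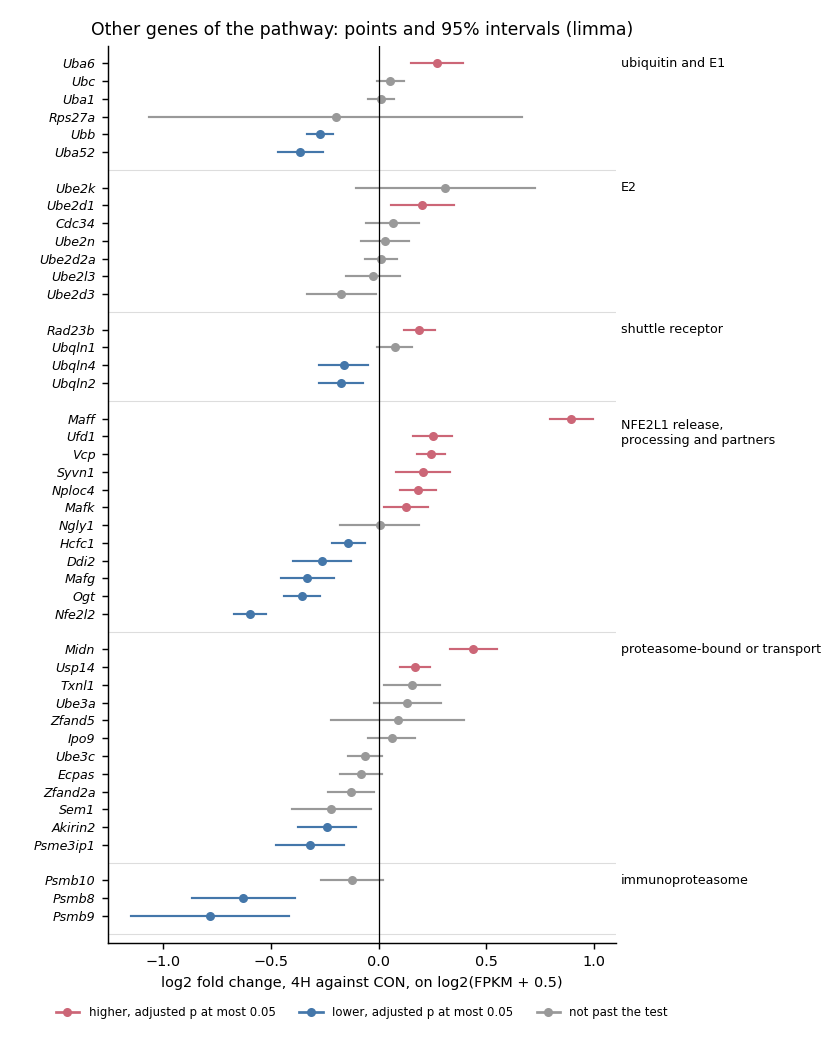
Log2 fold change of the other tested genes of ubiquitin-dependent degradation, 1 of them left out, 4H against CON on log2(FPKM + 0.5), as points with 95% confidence intervals from limma (n = 3 per group), grouped by role. Maff lies furthest to the right at 0.89, and Psmb9, Psmb8 and Nfe2l2 lie furthest to the left.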

How the data were processed

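Poly(A) RNA of 3 CON and 3 4H samples of C2C12 cells was sequenced as strand-specific paired-end libraries. The authors deposited FPKM values of 22375 rows, 1 column per library, not pooled. The submitters' processing notes name build mm10. No aligner, counter or annotation is named in the sources used here. FPKM holds no read counts, so no counting error is given. From values under 0.1 FPKM, the relative depth of the libraries differed by at most 1.61%. No pair of libraries had identical columns.

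Every gene whose mean reached 0.5 FPKM was fitted by limma 3.58.1 under R 4.3.3 (eBayes with a trend after lmFit) on log2(FPKM + 0.5), two-sided, with Benjamini-Hochberg adjustment over all 11593. This scale understates changes of low genes. The study's thresholds for differential expression (adjusted p at most 0.05, log2 fold change at least 1 in either direction) were kept, but not its count model, which FPKM cannot feed. On simulated data for this comparison, over 11593 genes, the fit recovered 97% of genes changed by 1.5 and 74% of those changed by 0.5 (log2), and 6.56% of its calls were false. Only 200 genes were changed in the simulation, whereas 46.7% of genes were called in the data. Most called members changed by less than 0.5, which was not simulated, so these shares do not carry over to them.

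The members, lists and motifs were chosen with earlier results of these data known. Values in every library are given for the catalytic subunits, Nfe2l1, Pomp, Adrm1, Uchl5 and Psmf1, for the largest rise and fall among the called members of each role, and for the 4 largest rises and falls among the called genes of the pathway list. Psmd2 and Psmg1 to Psmg3 were added to these after their values were seen. So were Mafg, Mafk, Vcp, Ddi2, Rad23b, Ubqln1, Ubqln2, Ubqln4, Psmb10 and Sem1. Paaf1 of the pathway list was not analysed here, and 1 gene that the rule takes from this list is not reported here. Shared sequence is the share of 75-base stretches of a GENCODE M21 transcript found in another gene. Python 3.11.15 with numpy 2.4.6, pandas 2.3.3 and matplotlib 3.10.9 made the tables and figures.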

Additional observations from a re-analysis of the deposited data

How the results depend on the processing

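With the 18 alternatives, the number of members called was 9 to 16 higher and 6 to 9 lower, beside 12 and 8 (33.6% to 51.6% of all genes tested were called), and 0 reached an absolute log2 fold change of 1 in any of them. Leaving out each library gave 9 to 11 higher and 6 to 8 lower members, and 8 to 11 higher and 13 to 15 lower pathway genes. With a replicate block there were 9 higher and 8 lower members. The block used the replicate numbers given here, and libraries of the same number did not deviate together (correlations of deviations of 0.025, -0.0929 and -0.126). By title, however, C3 (CON replicate 3) shares its number with 4H3 (4H replicate 2). Their correlation was 0.176, the highest of all pairs. Whether the libraries were paired is not stated, and these values cannot decide it. Scaling mattered for values near 0. The median of the members was 0.0275 after rescaling to TPM and 0.0304 after quantile normalization, in place of -0.0087, and that of all genes tested 0.0277 and -0.0251, in place of -0.0137. After rescaling to TPM the 4H to CON ratios were 1.046 for the 20S core, 1.002 for the ATPases and 1.11 for the other 19S subunits. This rescaling raises the 4H values by construction, since the 4H columns hold less FPKM in all.

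Of 72 genes (the 47 members and the 25 called pathway genes), 46 kept their sign and their side of the threshold in all alternatives that tested them (17 of 18 for Psmb9, which a filter at 5 FPKM left out). Changes of sign were seen only for members that had not passed the test, and none passed it with the other sign. After rescaling to TPM, log2 fold changes turned positive for Psmb3 (0.0126), Psmb6 (0.0149), Psmc3 (0.0032), Psmd11 (0.0268) and Psmd7 (0.0275), and after quantile normalization likewise (0.0065, 0.0154, 0.0055, 0.0304 and 0.0505). After correction for GC content and length they were 0.0164 for Psmd11, 0.0013 for Psmd7 and -0.0136 for Psme1, and with array weights -0.0056 for Psme1. With each library left out, the values ran from -0.0186 to 0.0246 for Psma1, from -0.0444 to 0.0632 for Psma3, from -0.045 to 0.00074 for Psmb3, from -0.0036 to 0.0381 for Psmb4, from -0.0464 to 0.0077 for Psmb6, from -0.0268 to 0.115 for Psmd10, from -0.0253 to 0.0096 for Psmd11, from -0.0306 to 0.0211 for Psmd7, from -0.0828 to 0.0104 for Psmd9 and from -0.0247 to 0.0549 for Psme1. Precision rests on the spread of 3 libraries per group, since depth is not part of FPKM.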
